A study of Mus musculus with 6 samples.

Results

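Serpins are a protein family built on 1 shared fold, and most members block serine or cysteine proteases. The members described in mouse liver RNA were rows of a gene count table whose symbol begins with Serpin, followed by a clade letter from a to i and a number, with pseudogenes named as such left out. They were 41 of 16603 genes. Of these, 18 were set apart as plasma serpins, made mainly by hepatocytes and secreted into blood, and the other 23 as tissue serpins, from general knowledge of where each protein is made. RNA was sequenced from 3 liver samples labelled wild-type and 3 labelled Mdr2-/-. Mdr2, gene symbol Abcb4, is the hepatocyte carrier that moves phosphatidylcholine into bile, and mice lacking it are a model of chronic bile duct injury and liver fibrosis. The labels give tissue and genotype, and nothing on age, sex, strain or the allele. Whether each sample is a different animal is not stated, and p-values therefore describe only the spread among these 6 samples, part of which may be technical.

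A serpin exposes a flexible stretch, the reactive centre loop, as bait. The protease that cuts the loop is trapped in a covalent complex, and the letters of the loop largely set which protease is caught. Hepatocytes supply most serpins of plasma: antitrypsin against neutrophil elastase, antithrombin and heparin cofactor II against clotting proteases, antiplasmin against plasmin, and C1 inhibitor against complement and contact proteases. A few family members block no protease and instead carry hormones or fold collagen. Clade B serpins mostly stay inside the cell, where they protect leukocytes and epithelia from granzymes and cathepsins.

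The 6 libraries held 17100393 to 18124467 counts, and a floor of 3 counts, the limit that a count of 0 allows, corresponded to 0.149 to 0.192 CPM. CPM are counts scaled to a common library size of 1e6, here after TMM, edgeR's factors that centre most genes. Abcb4 stood at 329.9, 368.9 and 273.2 CPM in the libraries labelled wild-type and at 499.6, 513 and 433.7 CPM in those labelled Mdr2-knockout, so it was higher in all 3 of the latter (log2 fold change 0.57 with SE 0.12, edgeR adjusted p = 0.00389). That goes against the label, although reads from outside a deleted stretch check nothing and the labels do not say what the allele removes. All groups are therefore named by their labels alone. The columns of the tables carry only the letters N and M; M begins the titles of the knockout group and N was taken as wild-type by elimination, and every direction rests on that reading.

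A low-count filter left 28 serpins to test, 17 plasma and 11 tissue. Among the plasma serpins 14 were lower in the libraries labelled Mdr2-knockout, where 16.3% of the 12612 genes tested were lower, and none was higher. That count of 0 was also 0 at an unadjusted p under 0.05 in edgeR, with DESeq2 and with limma-voom. Among the tissue serpins 6 were higher, against 20.9% of all tested genes, and none was lower. At an unadjusted p under 0.05 there was 1 lower tissue serpin, Serpine2, against 21.6% of all tested genes. DESeq2 also called it lower, against 15.3% of tested genes, while limma-voom did not. The median log2 fold change was -0.60 over the 17 plasma serpins, 0.90 over the 11 tissue serpins and 0.01 over all tested genes. Of the 6 tissue serpins that rose, Serpini1 reached the filter in no library labelled wild-type, so it passed through the other group, and the tissue count and median rest in part on that.

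**Figure D1:**
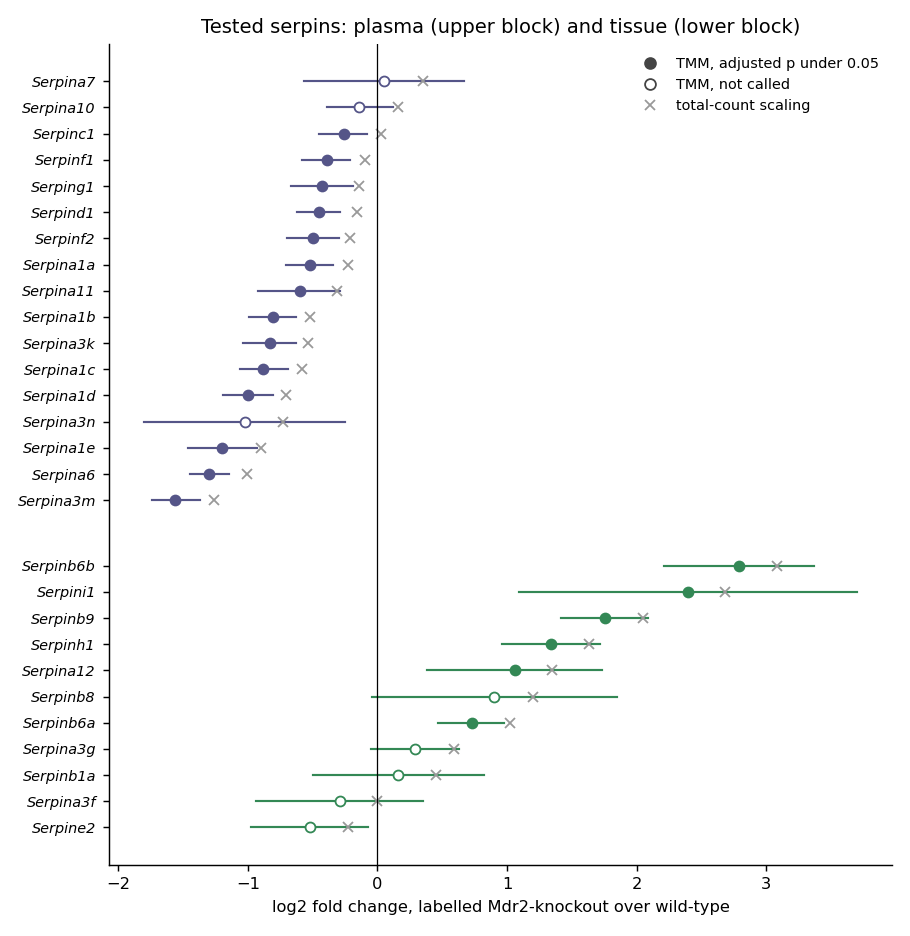
Log2 fold change of each of the 28 tested serpins, libraries labelled Mdr2-knockout over libraries labelled wild-type, with plasma serpins in the upper block and tissue serpins in the lower. Circles are TMM-scaled edgeR estimates with their 95% confidence intervals, filled where the adjusted p is under 0.05, and crosses are the same fit scaled by total counts. The plasma serpins run from -1.56 to 0.05 and the tissue serpins from -0.52 to 2.79, and the crosses lie to the right of the circles, reaching or passing 0 for Serpinc1, Serpina10 and Serpina3f.

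The size of the plasma result depended on the scaling. Scaling by total counts moved the median of all tested genes by 0.29 on the log2 scale, and under it 47.1% of genes were higher and 2.62% lower. Under that scaling 8 of the 17 plasma serpins were lower, 0 were higher (0 also at an unadjusted p) and their median was -0.31. The 8 were the 5 Serpina1 copies, Serpina3k, Serpina3m and Serpina6. Among the tissue serpins 8 were then higher and the median was 1.2. On TMM-scaled CPM the groups did not overlap for 15 of 17 plasma serpins, with the lower values in the libraries labelled Mdr2-knockout. Of all tested genes 23.7% did so. On the same CPM the groups did not overlap for 7 of 11 tissue serpins, with the higher values in the libraries labelled knockout. Of all tested genes 27.6% did so. Scaled by total counts, the groups of the plasma serpins Serpina3n, Serpinc1, Serpinf1 and Serping1 overlapped.

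A measure that needs no scaling factor is the share of a library's counts taken by the 18 plasma serpins together. It was 4.84%, 5.17% and 5.31% in the libraries labelled wild-type and 3.48%, 3.39% and 3.48% in those labelled Mdr2-knockout. All 3 shares labelled knockout were below all 3 labelled wild-type, with a difference of -1.66 percentage points (exact two-sided permutation test, p = 0.1, the smallest that 3 against 3 allows). Shares and ratios were compared for 24 quantities, and a p of 0.1 became 0.133 after Benjamini-Hochberg adjustment over them, so none of these passes 0.05. The tissue serpins took 0.00800% to 0.00944% of counts in the libraries labelled wild-type and 0.0150% to 0.0181% in those labelled knockout. Serpin RNA in this liver was thus almost wholly plasma serpin RNA in both groups.

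Other hepatocyte transcripts were lower as well. Of 19 hepatocyte marker genes 14 were lower, beside 16.3% of all tested genes, with a median log2 fold change of -0.60 over the 19. The summed level of the 19 was 166000 to 175000 CPM in the libraries labelled wild-type and 103300 to 107300 CPM in those labelled knockout. Under total-count scaling 9 of these markers were lower and 2 higher, beside 2.62% and 47.1% of all tested genes. Albumin (Alb), the most abundant of them, took 7.82%, 7.99% and 7.31% of counts against 5.41%, 5.53% and 5.48%. In bulk tissue, fewer cells of a type and less RNA per cell cannot be told apart. The part of the hepatocyte share in the plasma serpin values was not tested beyond the ratios to Alb given for single genes.

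The Serpina1 genes encode alpha-1-antitrypsin, the plasma inhibitor of neutrophil elastase, of which this mouse genome carries the copies Serpina1a to Serpina1e. All 5 fell. Serpina1e stood at 13170, 15460 and 18170 CPM in the libraries labelled wild-type and at 7005, 7197 and 6227 CPM in those labelled Mdr2-knockout. Every value labelled knockout lay below every value labelled wild-type (log2 fold change -1.20 with SE 0.12, edgeR adjusted p = 6.89e-05). Serpina1d went from 3524, 3894 and 3433 CPM to 1891, 1751 and 1781 CPM, again with no overlap (log2 fold change -1.0 with SE 0.09, edgeR adjusted p = 2.71e-05). Serpina1c went from 2857, 3156 and 2777 CPM to 1657, 1552 and 1580 CPM, a tight group well below the other (log2 fold change -0.88 with SE 0.09, edgeR adjusted p = 5.97e-05). Serpina1b went from 5882, 6528 and 6194 CPM to 3584, 3370 and 3660 CPM, with a gap wider than the spread of either group (log2 fold change -0.81 with SE 0.08, edgeR adjusted p = 7.88e-05). Serpina1a moved least, from 2842, 2784 and 3018 CPM to 1894, 2106 and 2010 CPM (log2 fold change -0.52 with SE 0.08, edgeR adjusted p = 0.00101). Its groups also did not overlap.

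The 5 copies are nearly the same gene. Over the coding sequence, pairs of copies were 96.29% to 98.47% identical. Over the stretch that encodes the reactive centre loop, pairs were 86.21% to 94.25% identical. These stretches are shown because the loop is the bait that sets which protease is caught. They are GRCm38 sequence from GENCODE M21 transcripts, on the minus strand of chromosome 12, from the hinge to the start of the next conserved segment. Capitals mark the 18 of 87 bases at which the copies are not all alike.
Serpina1a, chr12:103853750-103853836: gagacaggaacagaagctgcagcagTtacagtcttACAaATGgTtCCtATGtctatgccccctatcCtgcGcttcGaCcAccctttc
Serpina1b, chr12:103728317-103728403: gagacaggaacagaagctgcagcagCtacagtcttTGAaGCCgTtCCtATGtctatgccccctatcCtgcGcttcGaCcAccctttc
Serpina1c, chr12:103895087-103895173: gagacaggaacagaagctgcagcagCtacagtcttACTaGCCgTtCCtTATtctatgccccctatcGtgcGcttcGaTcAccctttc
Serpina1d, chr12:103763755-103763841: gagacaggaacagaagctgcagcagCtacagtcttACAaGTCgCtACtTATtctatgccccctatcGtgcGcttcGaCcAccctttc
Serpina1e, chr12:103947093-103947179: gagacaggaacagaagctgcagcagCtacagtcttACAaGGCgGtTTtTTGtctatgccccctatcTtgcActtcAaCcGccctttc

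Differing bases lie on both sides of the shared run tctatgccccctatc. On the left the copies are the same only up to the first capital, where Serpina1a alone differs. Serpina1e alone departed from a base shared by the other copies at 4 positions, Serpina1a at 3, Serpina1b and Serpina1c at 2 each, and Serpina1d at 0. Because the copies share long stretches, reads can be split between them or lost in counting, and each copy's value is uncertain. In the annotation the Serpina1b model, chr12:103728156-103830373, also spans Serpina1d. Of all 100-base windows along the transcript, 85.2% occurred in no other serpin transcript for Serpina1e, 80.8% for Serpina1b, 73.7% for Serpina1d, 52.6% for Serpina1a and 41.5% for Serpina1c. The window length is an illustration, since no source used here gives the read length.

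Within the Serpina1 counts, the shares of 3 copies did not overlap between the groups. Serpina1e supplied 46.6%, 48.6% and 54.1% of them in the libraries labelled wild-type and 43.7%, 45.1% and 40.8% in those labelled Mdr2-knockout. Serpina1a supplied 10.1%, 8.75% and 8.98%, against 11.8%, 13.2% and 13.2%. Serpina1b supplied 20.8%, 20.5% and 18.4%, against 22.4%, 21.1% and 24%. For these copies the groups did not overlap (exact two-sided permutation p = 0.1 each, adjusted 0.133). Serpina1c and Serpina1d had overlapping shares (exact permutation p = 0.3 and p = 0.9). The Serpina1e share was highest in labelled wild-type library 3, and so were its counts.

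**Figure D2:**
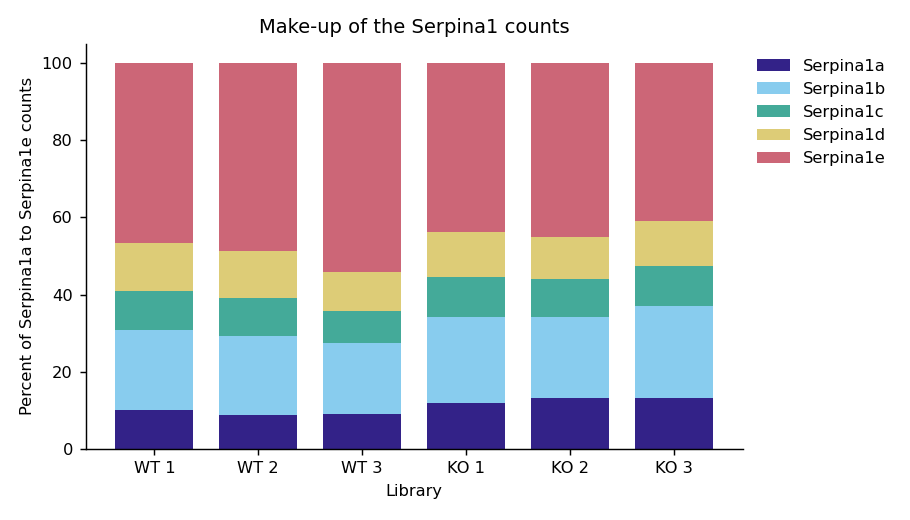
Stacked bars give the percent of all Serpina1a to Serpina1e counts that fell to each copy, 1 bar for each of the 6 libraries (WT, labelled wild-type; KO, labelled Mdr2-knockout). The Serpina1e block runs from 46.6% to 54.1% in the first 3 bars and from 40.8% to 45.1% in the last 3, while the Serpina1a block is 8.75% to 10.1% and then 11.8% to 13.2%.

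Each of the 5 RefSeq promoters, 250 bases before to 50 after the annotated start, holds the letters GTTAAT, the core of the site bound by the hepatocyte factor HNF1. The windows shown are 100 bases around it, from RefSeq on GRCm38.p6, minus strand of chromosome 12, with GTTAAT in capitals. They are printed so that the stretch can be compared between copies that fell together.
Serpina1a, chr12:103863596-103863695: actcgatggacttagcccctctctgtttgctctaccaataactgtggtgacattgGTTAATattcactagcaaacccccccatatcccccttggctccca
Serpina1b, chr12:103738171-103738270: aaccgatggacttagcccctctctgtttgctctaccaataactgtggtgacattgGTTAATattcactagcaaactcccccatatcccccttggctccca
Serpina1c, chr12:103904933-103905032: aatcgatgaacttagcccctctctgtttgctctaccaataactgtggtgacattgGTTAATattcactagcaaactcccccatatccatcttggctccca
Serpina1d, chr12:103773605-103773704: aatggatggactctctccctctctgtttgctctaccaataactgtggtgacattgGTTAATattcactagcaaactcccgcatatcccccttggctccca
Serpina1e, chr12:103956931-103957030: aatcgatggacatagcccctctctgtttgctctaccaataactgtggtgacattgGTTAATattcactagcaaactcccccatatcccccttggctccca

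The letters begin 21, 26, 27, 16 and 78 bases before the annotated start of Serpina1a, Serpina1b, Serpina1c, Serpina1d and Serpina1e. Promoters were found for 33 of the 41 serpins. GTTAAT on either strand occurred in 7 of 13 plasma serpin promoters (the 5 Serpina1 copies, Serpina3c and Serpina7) and in 1 of 20 tissue serpin promoters (Serpinb8). By gene, 8.24% of the 27025 genes with such a promoter held it, and 5.85% of those tested here. Of all 32851 RefSeq promoters of that length 7.1% did. A match is a description of letters and no measured binding. The 5 copies are near duplicates and are not independent cases of it.

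The Serpina3 genes are the mouse relatives of human alpha-1-antichymotrypsin, expanded to many copies. Serpina3k, known as contrapsin and as a kallikrein-binding protein, stood at 16470, 17730 and 16130 CPM in the libraries labelled wild-type and at 9206, 8664 and 10360 CPM in those labelled Mdr2-knockout. The groups were far apart for their spread (log2 fold change -0.83 with SE 0.09, edgeR adjusted p = 0.000119). Serpina3m fell most of all tested serpins, from 611, 649 and 674 CPM to 209, 218 and 231 CPM, a level 2.94-fold lower (log2 fold change -1.56 with SE 0.08, edgeR adjusted p = 1.82e-06). Serpina3n, an acute phase serpin that inhibits granzyme B and cathepsin G, stood at 759, 1052 and 1646 CPM in the libraries labelled wild-type and at 521, 663 and 516 CPM in those labelled knockout. All 3 labelled wild-type values were the higher ones, yet their own range was wide, and the test did not pass (log2 fold change -1.02 with SE 0.31, edgeR adjusted p = 0.0508).

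The Serpina3n value sat on the threshold and moved with single libraries. When labelled wild-type library 3 was left out, its log2 fold change was -0.69 (edgeR adjusted p = 0.0171). When labelled wild-type library 1 was left out, it was -1.26 (edgeR adjusted p = 0.00636). DESeq2 gave an adjusted p of 0.0121, limma-voom 0.015 and edgeR with RLE factors 0.0486. Serpina3m made up 3.43%, 3.34% and 3.65% of the counts of Serpina3k, Serpina3m and Serpina3n in the libraries labelled wild-type and 2.1%, 2.28% and 2.08% in those labelled knockout (exact permutation p = 0.1, adjusted 0.133). All 3 labelled knockout shares were the lower ones, a description that passes no test at this sample size.

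The loop stretches of these 3 genes are shown to set the bait letters of genes with 83.79% to 92.6% identical coding sequence side by side. They lie on the plus strand of chromosome 12 (GRCm38, GENCODE M21), and capitals mark the stretch between the hinge and the closing segment.
Serpina3k, chr12:104345263-104345352: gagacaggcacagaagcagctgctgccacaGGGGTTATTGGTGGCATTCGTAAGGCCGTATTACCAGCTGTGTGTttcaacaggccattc
Serpina3m, chr12:104393763-104393858: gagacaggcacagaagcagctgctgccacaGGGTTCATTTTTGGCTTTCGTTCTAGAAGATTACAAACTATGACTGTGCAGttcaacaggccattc
Serpina3n, chr12:104413442-104413537: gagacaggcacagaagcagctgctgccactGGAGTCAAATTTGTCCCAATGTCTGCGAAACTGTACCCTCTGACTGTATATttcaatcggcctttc

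The stretch is 90 bases long in Serpina3k and 96 in Serpina3m and Serpina3n. In the annotation the gene models of Serpina3k and Serpina3m start at the same base, 104338486, and end at 104346144 and 104394257. The whole Serpina3k span thus lies within the Serpina3m model, and reads from stretches that both share cannot be told apart. Unique 100-base windows made up 95.2% of the Serpina3k, 93.9% of the Serpina3m and 99.8% of the Serpina3n transcript.

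The other Serpina3 copies were minor in this tissue. Serpina3g, an intracellular inhibitor of cathepsins in leukocytes, stood at 4.45, 5.30 and 5.49 CPM in the libraries labelled wild-type and at 6.35, 6.40 and 5.92 CPM in those labelled Mdr2-knockout. Its groups did not overlap, but it did not pass the test (log2 fold change 0.29, edgeR adjusted p = 0.157), and it was higher under total-count scaling (0.59, adjusted p = 0.00888). Serpina3f ranged from 1.51 to 3.39 CPM with overlapping groups (log2 fold change -0.29, edgeR adjusted p = 0.456).

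Among the hormone carriers, Serpina6, corticosteroid-binding globulin, fell while Serpina7, thyroxine-binding globulin, did not pass. Serpina6 stood at 109, 102.9 and 99.9 CPM in the libraries labelled wild-type and at 43.2, 40.8 and 42.7 CPM in those labelled Mdr2-knockout. Both groups were tight and far apart (log2 fold change -1.30 with SE 0.07, edgeR adjusted p = 1.8e-06). Serpina6 was also lower relative to Alb, at 0.128%, 0.115% and 0.123% of the Alb counts, against 0.0887%, 0.0811% and 0.0863% (exact permutation p = 0.1, adjusted 0.133). Serpina7 stood at 44.7, 73.8 and 65 CPM against 49.9, 62.8 and 77.4 CPM. Its groups overlapped through most of their range (log2 fold change 0.05, 95% confidence interval -0.57 to 0.67, edgeR adjusted p = 0.896).

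The angiotensin precursor Agt is a serpin by fold that carries another symbol and so was no member under the symbol rule. It stood at 1148, 1381 and 1237 CPM in the libraries labelled wild-type and at 689, 733 and 771 CPM in those labelled Mdr2-knockout (log2 fold change -0.78 with SE 0.09, edgeR adjusted p = 0.000205).

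The serpins of clotting, fibrinolysis and complement had log2 fold changes between -0.50 and -0.14. Serpinc1, antithrombin, the main plasma inhibitor of thrombin and factor Xa, stood at 2433, 2475 and 2334 CPM in the libraries labelled wild-type and at 2046, 2092 and 1889 CPM in those labelled Mdr2-knockout. The groups did not overlap on this scale (log2 fold change -0.26 with SE 0.08, edgeR adjusted p = 0.0271), but under total-count scaling they overlapped and the sign turned (log2 fold change 0.03, adjusted p = 0.789). Upper-quartile factors and leaving out any of 4 libraries (labelled wild-type 1 or 2, labelled knockout 1 or 3) also ended the Serpinc1 call, with edgeR adjusted p from 0.0546 to 0.102. Against Alb the direction was the opposite one. Serpinc1 counts were 2.86%, 2.75% and 2.87% of the Alb counts in the libraries labelled wild-type and 4.21%, 4.16% and 3.82% in those labelled knockout (exact permutation p = 0.1, adjusted 0.133). Relative to albumin transcripts, antithrombin transcripts were thus more abundant in all 3 libraries labelled knockout.

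Serpind1, heparin cofactor II, a thrombin inhibitor, went from 863, 891 and 915 CPM to 658, 643 and 648 CPM, with groups well apart (log2 fold change -0.45 with SE 0.08, edgeR adjusted p = 0.00138). Serpinf2, alpha-2-antiplasmin, went from 1101, 1172 and 1152 CPM to 889, 769 and 761 CPM (log2 fold change -0.50 with SE 0.09, edgeR adjusted p = 0.00186). Serping1, C1 inhibitor, which brakes complement and contact proteases, went from 1041, 1126 and 1347 CPM to 834, 949 and 823 CPM (log2 fold change -0.43 with SE 0.11, edgeR adjusted p = 0.0117). On this scale the groups of all 3 genes did not overlap, while total-count scaling left the same sign and ended each call. The cofactor-dependent Serpina10, protein Z-dependent protease inhibitor, ranged from 192 to 267 CPM in the libraries labelled wild-type and from 197 to 220.5 CPM in those labelled knockout. It was not called (log2 fold change -0.14, edgeR adjusted p = 0.373), and total-count scaling gave 0.16. Relative to Alb, Serpind1, Serpinf2, Serping1 and Serpina10 were each higher in all 3 libraries labelled knockout (exact permutation p = 0.1, adjusted 0.133). Serpina10, for example, stood at 0.405% to 0.438% of the Alb counts against 0.226% to 0.328%. Alb itself had a log2 fold change of -0.79, beside a hepatocyte marker median of -0.60 and -0.47 for the marker Ahsg. The ratios of these genes and of Serpinc1 therefore depend on Alb as reference, and no other reference was used.

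The remaining plasma serpins were Serpinf1 and Serpina11. Serpinf1, pigment epithelium-derived factor, blocks no protease and restrains vessel growth. It went from 698, 717 and 671 CPM to 566, 520.1 and 502 CPM (log2 fold change -0.39 with SE 0.08, edgeR adjusted p = 0.00442), and total-count scaling ended the call. Serpina11 went from 60.3, 61.9 and 86.4 CPM to 47.6, 46.9 and 43 CPM, with the highest value in labelled wild-type library 3 (log2 fold change -0.60 with SE 0.14, edgeR adjusted p = 0.0106), a call that total-count scaling also ended.

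Levels between serpins were compared per length, on the deposited FPKM. In the libraries labelled wild-type Serpina1e led the family at 10240 ± 1560 FPKM (SD, n = 3) and ranked 3 among all genes, followed by Serpina3k at 9167 ± 377 FPKM, rank 5. In the libraries labelled Mdr2-knockout Serpina3k led at 6304 ± 606 FPKM, again rank 5, and Serpina1e followed at 5482 ± 398 FPKM, rank 6. The mean ± SD ranges of these 2 genes overlapped in both groups. Next came Serpina1b at 3928 and 2747 FPKM, with Serpina1d, Serpina1c, Serpina1a and Serpinc1 behind it in the same order in both groups. Serpinc1, at 1044 ± 33.9 and 1064 ± 53.3 FPKM, did not differ beyond its spread on this total-count scale. Among the tissue serpins Serpine2 led in the libraries labelled wild-type, at 14 ± 3.72 FPKM, ahead of Serpinb6a at 5.8 ± 0.87 FPKM. In those labelled knockout Serpine2 (12 ± 0.91 FPKM), Serpinb6a (11.8 ± 0.27 FPKM) and Serpina12 (10.5 ± 3.15 FPKM) did not differ beyond their spread.

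Members on chromosome 12 form 1 cluster. Of the 41 serpins 20 lie at chr12:103614786-104414329 (GRCm38), and 14 of them were tested. The Serpina1 copies and Serpina6 lie on the minus strand, and Serpina3k, Serpina3m and Serpina3n on the plus strand. Of these 14 tested genes 9 were lower, where 16.3% of all tested genes were, 1 was higher, where 20.9% were, and 4 were not called. The higher one, Serpina12 or vaspin, an inhibitor of kallikrein 7 best known from fat tissue, stood at 21.6, 15.2 and 13.8 CPM in the libraries labelled wild-type and at 46.9, 30.9 and 27.6 CPM in those labelled Mdr2-knockout. Each group had 1 library above the others, and the groups did not overlap (log2 fold change 1.06 with SE 0.27, edgeR adjusted p = 0.0291). The Serpina12 call ended without the low-count filter (adjusted p = 0.059) and without labelled wild-type library 2 (0.0938), labelled wild-type library 3 (0.0891) or labelled knockout library 2 (0.055).

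**Figure D3:**
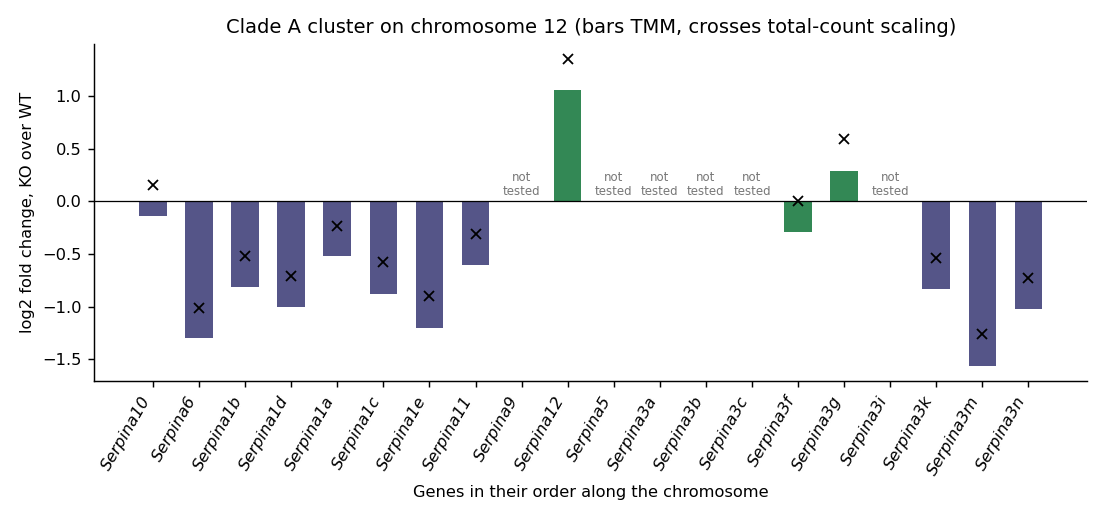
Log2 fold change (labelled Mdr2-knockout, KO, over labelled wild-type, WT) of the tested clade A serpins of chromosome 12, in gene order from Serpina10 to Serpina3n. Bars are TMM-scaled edgeR estimates and crosses total-count scaling. Serpina12 is the 1 called bar above 0, at 1.06, and the Serpina10 cross lies above 0 while its bar lies below.

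Among the clade B serpins, Serpinb6b, Serpinb9 and Serpinb6a rose. They lie on chromosome 13, at chr13:32965209-32979067, chr13:33003250-33017957 and chr13:33917918-34002794. Serpinb6b, which binds granzyme A, stood at 1.40, 1.66 and 1.51 CPM in the libraries labelled wild-type and at 10.9, 13.7 and 7.22 CPM in those labelled Mdr2-knockout. It rose furthest of all tested serpins, by 6.93-fold, with every value labelled knockout above every one labelled wild-type (log2 fold change 2.79 with SE 0.26, edgeR adjusted p = 5.05e-05). Serpinb9, the intracellular inhibitor of granzyme B, went from 4.83, 7.03 and 6.12 CPM to 20.6, 22.5 and 17.6 CPM, also without overlap (log2 fold change 1.76 with SE 0.15, edgeR adjusted p = 2.71e-05). Serpinb6a, which inhibits cathepsin G, went from 11.3, 12.6 and 15.3 CPM to 21.1, 21.5 and 22.1 CPM. The group labelled knockout was tight and above the other (log2 fold change 0.73 with SE 0.12, edgeR adjusted p = 0.00105).

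Serpinb9 took 5.16%, 6.62% and 6.88% of the tissue serpin counts in the libraries labelled wild-type and 12.7%, 15.3% and 13.1% in those labelled knockout (exact permutation p = 0.1, adjusted 0.133), with all 3 labelled knockout shares above the others. The coding sequences of Serpinb6a, Serpinb6b and Serpinb9 were 69.69% to 86.35% identical in pairs, and all 100-base windows of each were unique among serpin transcripts. Serpinb8, an inhibitor of furin, stood at 1.27, 0.894 and 2.40 CPM against 3.92, 3.02 and 1.61 CPM. Its groups overlapped and it was not called (log2 fold change 0.90, edgeR adjusted p = 0.119), although it passed under total-count scaling (0.0381) and without labelled wild-type library 3 (0.0287) or labelled knockout library 3 (0.0359). Serpinb1a, an elastase inhibitor of neutrophils, ranged from 1.66 to 3.27 CPM with overlapping groups (log2 fold change 0.16, edgeR adjusted p = 0.708).

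Serpinh1, known as HSP47, is the collagen chaperone of the endoplasmic reticulum and inhibits no protease. It stood at 6.93, 5.24 and 8.52 CPM in the libraries labelled wild-type and at 19.5, 14.9 and 18 CPM in those labelled Mdr2-knockout, 2.53-fold higher and without overlap (log2 fold change 1.34 with SE 0.17, edgeR adjusted p = 0.000341). Of 16 other tested genes of procollagen handling 5 were higher and 2 lower (median 0.23), beside 20.9% higher and 16.3% lower among all tested genes. Under total-count scaling 10 were higher and 6 not called, beside 47.1% of all genes higher, so these counts lie near the background. Fkbp10, a prolyl isomerase that acts on procollagen, rose by 1.85 on the log2 scale and Crtap, part of the prolyl 3-hydroxylase complex, by 0.80, while Mia3, which loads procollagen for export, fell by 0.45 on that scale (-0.16 and not called under total-count scaling). In the libraries labelled wild-type Fkbp10 had 11, 12 and 10 counts, near the filter, so its fold is imprecise.

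Serpini1, neuroserpin, an inhibitor of tissue plasminogen activator, had 5, 1 and 1 counts in the libraries labelled wild-type and 19, 12 and 17 in those labelled knockout (log2 fold change 2.40 with SE 0.59, edgeR adjusted p = 0.01). It was near the detection limit in the libraries labelled wild-type, where 2 of 3 values were below the 3-count floor, and it passed the filter only through the other group. Without labelled wild-type library 1 its log2 fold change was 3.53, so its size is poorly set.

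Serpine2, protease nexin 1, an inhibitor of thrombin and urokinase, went the other way without passing. It stood at 35.7, 52.3 and 31.4 CPM in the libraries labelled wild-type and at 25.1, 28.8 and 29.1 CPM in those labelled Mdr2-knockout. On this scale the groups did not overlap, and the highest value was in labelled wild-type library 2 (log2 fold change -0.52 with SE 0.19, edgeR adjusted p = 0.0733). Under total-count scaling the groups of Serpine2 overlapped (log2 fold change -0.23, edgeR adjusted p = 0.322). Serpine2 passed with DESeq2 (adjusted p = 0.0116) and, in TMM-scaled edgeR, without labelled wild-type library 3 (0.0153).

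**Figure D4:**
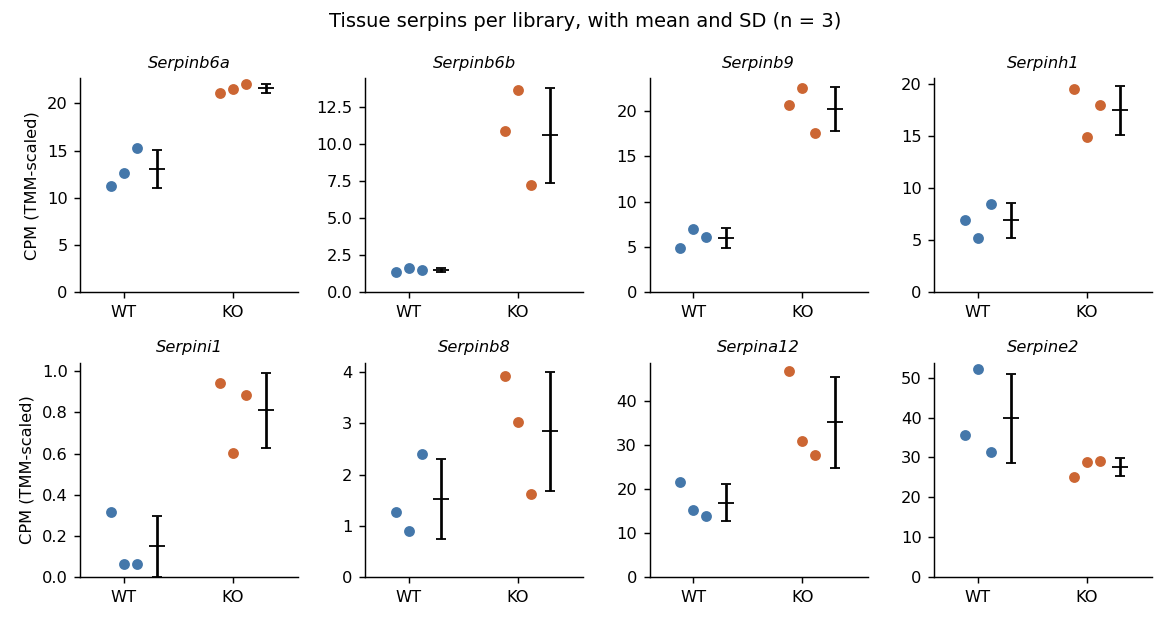
CPM (TMM-scaled) of 8 tissue serpins, 1 panel a gene, with 1 point for each library labelled wild-type (WT) or Mdr2-knockout (KO) and the mean and SD of each group (n = 3). In 6 panels all 3 KO points lie above the WT points, for Serpinb6b at 7.22 CPM and above against 1.66 CPM and below, in the Serpinb8 panel the groups overlap, and in the Serpine2 panel the KO points lie below.

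Most markers of bile duct, macrophage and stellate cells were higher as well, against 20.9% of all tested genes. Of the bile duct markers 15 of 15 tested were higher, with a summed level of 99.1 to 117 CPM in the libraries labelled wild-type and 461 to 497.6 CPM in those labelled Mdr2-knockout. Of the monocyte and macrophage markers 13 of 14 were higher (196.6 to 354.9 CPM against 602.9 to 661.1 CPM), and of the stellate cell and fibroblast markers 11 of 16 (291.7 to 450 CPM against 711.9 to 861.8 CPM). Neutrophil markers were scarce, at 4.58 to 11.1 CPM against 15.4 to 17.4 CPM in sum, with 3 of 5 tested higher and Ly6g at 0 in every library. Of 4 tested T, NK and B cell markers 1 was higher, Jchain (4.64 to 8.08 CPM against 8.11 to 11.2 CPM in sum). Jchain had 9, 6 and 9 counts in the libraries labelled wild-type and passed the filter only through the other group. Of 12 endothelial markers 3 were higher and 3 lower, beside 20.9% and 16.3% of all tested genes. Their median log2 fold change was -0.04 (344 to 395.6 CPM against 350 to 375.2 CPM in sum). Total-count scaling gave 6 and 1, beside 47.1% and 2.62% of all tested genes. The part of any of these cell types in the tissue serpin values was not tested.

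Markers of cells from outside the liver were checked too. Beside them, 20.9% of all tested genes were higher and 16.3% lower. Both tested mesothelial markers were higher (1.83 to 2.17 CPM against 4.33 to 6 CPM in sum). Of these, Msln had 4, 4 and 3 counts in the libraries labelled wild-type and passed the filter only through the other group. The 1 tested squamous marker, Sprr1a, was at 0 in the libraries labelled wild-type and at 1.40 to 2.82 CPM in the others. It too passed the filter only through the group labelled knockout. Krt4 was at 0 throughout. Of 2 tested pancreatic acinar markers Cela1 was lower, and it made up most of the summed level (16.4 to 20.8 CPM against 5.4 to 6.4 CPM). The other, Cela2a, was scarce and not called (log2 fold change -0.05, edgeR adjusted p = 0.952). Kit, the 1 tested mast cell marker, was not called (5.99 to 6.71 CPM against 7.17 to 7.91 CPM in sum), and Tpsb2, Mcpt8 and Ms4a2 were at 0 in every library. Of 5 tested erythroid markers 1, Alas2, was lower (206.1 to 483.2 CPM against 214.7 to 238.9 CPM in sum), a summed level in the libraries labelled wild-type above that of the bile duct markers.

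Proteases on which serpins act were counted from lists of the same kind. Of 16 tested proteases of clotting, fibrinolysis, contact and complement systems, most of them made by hepatocytes, 10 were lower, beside 16.3% of all tested genes, and 6 did not pass (median -0.33). Prothrombin (F2), plasminogen (Plg), factor X (F10) and protein C (Proc) fell by 0.48, 0.48, 0.46 and 0.52 on the log2 scale, and under total-count scaling 1 of the 16 was lower and 2 higher, beside 2.62% and 47.1% of all genes. Of 12 tested tissue and leukocyte proteases 7 were higher, beside 20.9% of all tested genes, and 1 lower (median 1.09), and under total-count scaling 10 were higher, beside 47.1%, and 2 not called. Plat, tissue plasminogen activator and the target of Serpini1, stood at 1.02, 0.511 and 0.757 CPM in the libraries labelled wild-type and at 7.04, 6.85 and 7.33 CPM in those labelled Mdr2-knockout. St14, the epithelial membrane protease matriptase, was higher by 3.33 on the log2 scale. Cathepsin K (Ctsk) had 4, 8 and 9 counts in the libraries labelled wild-type and 47, 36 and 40 in those labelled knockout. Plat and Ctsk passed the filter only through the group labelled knockout, so no fold is given for either. The count of 7 rests in part on them. Plat, St14 and Ctsk each had all labelled knockout values above the others. In the libraries labelled wild-type Plat had 16, 8 and 12 counts, of which the 8 lies below the filter. St14 had 15, 15 and 11 there, near the filter, so its fold is imprecise.

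Of 14 tested receptors and cofactors of serpins 6 were higher and 4 lower (median 0.23), beside 20.9% and 16.3% of all tested genes. Under total-count scaling 9 were higher, beside 47.1% of all genes, and 5 not called. Lrp1, the hepatic receptor that clears serpin-protease complexes, fell by 0.50 and Asgr1, a galactose receptor of hepatocytes, by 0.48 on the log2 scale, and both kept their sign but lost the call under total-count scaling. Lrp2, an endocytic receptor of epithelia, had 2, 2 and 4 counts in the libraries labelled wild-type and 38, 38 and 33 in those labelled knockout. It passed the filter only through the latter group, and 2 of its labelled wild-type counts lie below the 3-count floor, so no fold is given. Of 24 tested protease inhibitors outside the serpin family 6 were higher and 8 lower (median -0.08), beside 20.9% and 16.3% of all tested genes. Scaled by total counts, 12 were higher and 2 lower, beside 47.1% and 2.62%. The higher counts lie near the background on both scales. Itih5, of the family of inter-alpha-trypsin inhibitor heavy chains, went from 18, 24.5 and 20.1 CPM to 104.3, 89.1 and 81.2 CPM (log2 fold change 2.14 with SE 0.13, edgeR adjusted p = 1.15e-05), the smallest p of this list. Fetub, a hepatocyte-made inhibitor of meprin metalloproteases, fell by 0.73 on the log2 scale, while Cstb, a cytosolic cathepsin inhibitor, was higher by 0.91. Spint1, the membrane inhibitor of matriptase, had 6, 5 and 10 counts in the libraries labelled wild-type and 88, 66 and 85 in those labelled knockout. Spint1 passed the filter only through the latter group, so no fold is given, and the count of 6 higher inhibitors rests in part on it.

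Libraries within a group were not alike in acute phase transcripts. The acute phase genes shown were picked after their values were seen. Saa1, serum amyloid A, stood at 87.9, 493.2 and 2626 CPM in the libraries labelled wild-type and at 339.7, 935.6 and 208.8 CPM in those labelled Mdr2-knockout, a far wider range within each group than between them (log2 fold change -1.11 with SE 1.42, edgeR adjusted p = 0.592). Saa2, Lcn2, Orm1 and Hp likewise had their highest labelled wild-type value in library 3 and their highest labelled knockout value in library 2. Serpina3n had the same order of libraries as Saa1 in both groups. Serpina1e, too, was highest in labelled wild-type library 3 and labelled knockout library 2, while Serpina3k was lowest in both of them. Whether an acute phase state of single samples took part in these values was not tested.

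**Figure D5:**
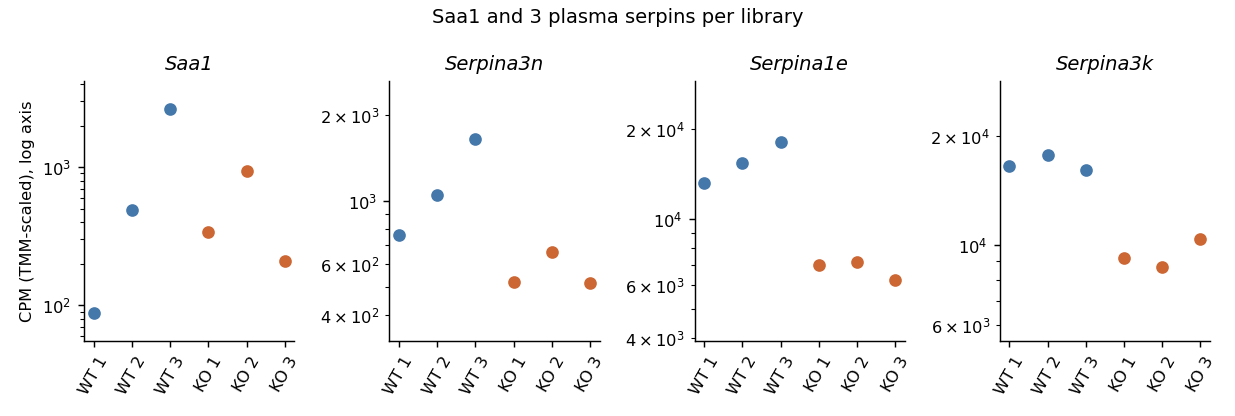
CPM (TMM-scaled, log axis) of Saa1, Serpina3n, Serpina1e and Serpina3k in each library, WT 1 to 3 labelled wild-type and KO 1 to 3 labelled Mdr2-knockout. Saa1 spans 87.9 to 2626 CPM among the WT libraries alone, and the library highest for Saa1 in each group is also highest for Serpina3n and Serpina1e and lowest for Serpina3k.

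The 13 serpins that did not pass the filter were scarce or silent. Serpina3a had 0 counts in all 6 libraries, which allows up to the 3-count floor in each. Serpina5, protein C inhibitor, had 2, 0 and 0 counts in the libraries labelled wild-type and 11, 3 and 10 in those labelled Mdr2-knockout, a ratio of 9.57 on effective library sizes (exact 95% counting interval 2.38 to 83.5). Its groups did not overlap, and it passed when edgeR was run without the filter (adjusted p = 0.0368). Serpina3i had 7 against 20 counts in sum (ratio 2.28, 0.925 to 6.37) and also did not overlap. Serpina9, expressed by germinal centre B cells, had 21 against 9 counts (ratio 0.342, 0.138 to 0.778), but 14 of the 21 came from 1 library and the groups overlapped. These intervals cover counting error only.

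Of the other 9, Serpina3c, put among the plasma serpins, had 17 against 16 counts and Serpina3b 4 against 7. Serpinb1b had 0 against 6 counts, at least 1.59-fold higher when the group at 0 is set to 3 counts in sum. Serpinb9b, Serpinb12, Serpinb10, Serpinb13, Serpinb5 and Serpinb7 had 1 to 5 counts over all 6 libraries. Serpinb10 is annotated in GENCODE M21 as a polymorphic pseudogene, and the other 40 members as protein-coding.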

How the data were processed

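Liver RNA of 6 samples was analysed, 3 per label. The authors deposited a table of raw whole-number counts by symbol and a table of FPKM, which held the same counts divided by length and library total and are no separate measurement. The submitters' processing notes name build mm10 and HISAT2, Bowtie2, SAMtools, Trimmomatic, StringTie, Cufflinks, HTSeq and DESeq. Their versions and roles, the annotation, strand setting and read length are not stated in the sources used here, so reads of overlapping genes and close copies cannot be told apart with certainty.

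Counts were fitted with edgeR 4.0.16 in R 4.3.3 on all tested genes: filterByExpr (minimum count 10, minimum total 15), TMM factors, robust quasi-likelihood fit with group as the only term, Benjamini-Hochberg adjustment over 12612 genes and a threshold of 0.05. Standard errors follow from the fold change and F statistic. CPM are counts over TMM-scaled library size. Alternatives were DESeq2 1.42.0, limma-voom (limma 3.58.1), scaling by total counts, upper quartiles or RLE, no filter, 1 CPM in 3 libraries, leaving out each library, and a replicate block. Scripts were tested on simulated data, where 47.8% of 1.5-fold, 88.1% of 2-fold and 97% of 4-fold changes were recovered. Of the calls in that test 8.28% were false. Every column had a sample. The symbol rule matched 42 rows, of which 1 is not reported here and stays out of all counts of serpins.

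Named with full values were members past the threshold and plasma members with a mean of at least 10 CPM, while genes named from a related list, most by fold change alone, are some of its 4 with the smallest p; Serpina3g, Serpina3f, Serpinb8, Serpinb1a, Serpine2, the untested members shown singly and the acute phase genes were added after their values were seen. Members, the plasma and tissue classes, gene lists and marker lists came from general knowledge and were chosen with earlier results of these data known. Gene models and transcripts are GENCODE M21 and promoters RefSeq. Reactive centre loops were located by their translated hinge motif. No library pair within a group agreed within counting noise.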

Additional observations from a re-analysis of the deposited data

How the results depend on the processing

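Of the 28 tested serpins 13 kept direction and call under every alternative run: the 5 Serpina1 copies, Serpina3k, Serpina3m, Serpina6, Serpinb6a, Serpinb6b, Serpinb9, Serpinh1 and Serpini1. Serpini1 passed the filter only through the group labelled knockout, so its kept call says nothing about stability: it was not testable at 1 CPM in 3 libraries, and its log2 fold change went from 2.40 to 3.53 without labelled wild-type replicate 1. Under total-count scaling 8 plasma serpins were lower, beside 2.62% of all tested genes, and 8 tissue serpins higher, beside 47.1%. When single libraries were left out, plasma serpins lower numbered 13 to 15 and tissue serpins higher 5 to 7. Plasma serpins higher numbered 0 throughout. Tissue serpins lower numbered 1 (Serpine2) with DESeq2, 1 with the replicate block and 0 to 1 when single libraries were left out. Total-count scaling turned the sign of Serpina10 (0.16), Serpinc1 (0.03) and Serpina3f (0.00). Serpina7 turned without labelled wild-type replicate 1 (-0.14) or labelled knockout replicate 3 (-0.12), within a leave-one-out range of -0.14 to 0.20, and Serpinb1a without labelled knockout replicate 1 (range -0.17 to 0.35). The cause was not tested.

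The difference in plasma serpin share was -1.79 to -1.56 percentage points with single libraries left out and -2.39 after the 20 most abundant other genes were taken out of the total. Deviations of same-numbered libraries correlated at 0.103, 0.058 and -0.073. No pairing by number was seen, although such correlations cannot exclude a weak one. With the replicate block, plasma serpins lower numbered 14, plasma higher 0 and tissue higher 6, and Serpine2 (adjusted p = 0.0338 in edgeR) was the 1 changed call. With 3 libraries a group, Serpini1 and the untested serpins were limited by counts.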
